A study of Mus musculus with 21 samples.

Results

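The levels of 10 genes that mark radial glia and cortical progenitors were described in RNA sequencing libraries of mouse embryos at embryonic day 14.5. The 10 genes, Pax6, Emx1, Emx2, Lhx2, Hes5, Sox2, Sox9, Nes, Fabp7 and Slc1a3, were taken by their symbols from 23827 rows, and each symbol stood on a single row. The study profiled total RNA (transcriptome) and RNA bound to mCherry-tagged ribosomes (translatome) in 21 libraries of 7 groups with 3 replicates each. Every embryo, controls included, carried the Gt(ROSA)26Sor-mCherry-Rpl10a+/- allele, in which a ubiquitous CAGGS promoter drives a tagged ribosomal protein once Cre has removed a stop cassette. The line goes back to a single embryonic stem cell clone, and organs were pooled for each sample. Forebrain (with part of the diencephalon) and kidney of Sox2Cre+/- embryos, in which Cre acts in all derivatives of the epiblast, gave the brain and kidney transcriptomes and translatomes. Cdh5CreERT2+/- embryos, whose mothers received tamoxifen, gave the brain and kidney endothelial translatomes. Emx1Cre+/- embryos gave the Emx1-lineage translatome, the RNA on ribosomes of cells descended from Emx1-expressing cells of the dorsal telencephalon. Nothing in the labels states that replicates of the endothelial and Emx1-lineage groups came from separate litters, so p-values measure the spread between these samples.

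Radial glia are the stem cells of the developing cortex. Their cell bodies line the ventricle, their long fibres reach the outer surface of the brain, and they divide to give neurons directly or through intermediate progenitors. Dorsal patterning factors (Pax6, Emx1, Emx2 and Lhx2) set the identity of the cortical field, Notch signalling through effectors such as Hes5 holds back neuronal differentiation, SoxB and SoxE factors (Sox2, Sox9) maintain the progenitor state, and the intermediate filament protein nestin (Nes), the fatty acid binding protein Fabp7 and the glutamate transporter Slc1a3 are classical markers of the radial glial cell body and fibre. None of these genes is restricted to the brain. Emx2 acts in the early urogenital system, Sox9 in many epithelia and in cartilage, and nestin is made by growing blood vessels.

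In these libraries 21760652 to 79231692 reads fell on genes, and the correlation of log2 values between replicates of a group was 0.9932 to 0.9986. The levels below are the RPKM values of the authors (reads per kilobase of transcript, scaled to the total of mapped reads), and fold changes were computed from the read counts. A difference was called at an adjusted p under 0.001 in edgeR's quasi-likelihood test, adjusted over all rows by the Benjamini-Hochberg method. Markers of the labelled cells were checked. The summed RPKM of 13 endothelial genes was 3752 to 3876 in the brain endothelial and 2428 to 2837 in the kidney endothelial translatome, against 192 to 225 and 422 to 452 in the whole-organ translatomes. In the Emx1-lineage translatome that sum was 19.1 to 21.8, and the summed RPKM of 10 ventral telencephalic genes was 103 to 107 against 329 to 355 in the brain translatome. Because these are bulk samples, fewer cells of a type and less RNA per cell cannot be told apart in any value that follows.

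In the GRCm38 assembly, with the GENCODE annotation, the patterning factors lie at chr2:105668900-105697364 (Pax6), chr6:85187438-85204462 (Emx1), chr19:59458372-59465357 (Emx2) and chr2:38339281-38369733 (Lhx2). The Notch and Sox genes lie at chr4:154960923-154962371 (Hes5), chr3:34650405-34652461 (Sox2) and chr11:112782224-112787760 (Sox9), and the marker genes at chr3:87971078-87980451 (Nes), chr10:57784881-57788450 (Fabp7) and, alone on the minus strand, chr15:8634124-8710764 (Slc1a3). The kit does not mark strand, so exonic reads of antisense genes that overlap Emx2 (Emx2os), Pax6 (Pax6os1) and Lhx2 (Gm27197, Gm13584), of Gm20421 at Hes5 and Gm37310 at Slc1a3, and of Sox2ot around Sox2 could be counted with them where exons overlap, and those 6 levels carry that uncertainty.

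The promoters of 3 members are shown, those of the paralogues Emx1 and Emx2, whose levels moved together in the Emx1-lineage and apart between the organs, and that of Hes5, the Notch effector. Each runs 5′ to 3′ from 250 bases before to 50 bases after the RefSeq gene start on the plus strand of GRCm38.p6, at chr6:85187681-85187980 for Emx1, chr19:59458440-59458739 for Emx2 and chr4:154960673-154960972 for Hes5. The Emx1 and Emx2 windows lie inside the GENCODE spans given above, which start further upstream. For these genes the windows may therefore not cover the start that GENCODE places. Capitals mark 4 short motifs searched on both strands, none of which overlapped another hit: TGGGAA, the core read by the Notch partner RBPJ, ACAAAG, a SOX core, TAATTA, a homeodomain core that is its own reverse complement, and CACGTG, an E-box.
Emx1: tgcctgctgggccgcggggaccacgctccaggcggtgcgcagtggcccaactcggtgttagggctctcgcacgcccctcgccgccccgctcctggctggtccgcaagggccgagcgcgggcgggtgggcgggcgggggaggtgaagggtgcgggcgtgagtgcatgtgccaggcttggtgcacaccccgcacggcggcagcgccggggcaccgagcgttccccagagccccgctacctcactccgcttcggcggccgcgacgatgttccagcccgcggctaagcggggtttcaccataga
Emx2: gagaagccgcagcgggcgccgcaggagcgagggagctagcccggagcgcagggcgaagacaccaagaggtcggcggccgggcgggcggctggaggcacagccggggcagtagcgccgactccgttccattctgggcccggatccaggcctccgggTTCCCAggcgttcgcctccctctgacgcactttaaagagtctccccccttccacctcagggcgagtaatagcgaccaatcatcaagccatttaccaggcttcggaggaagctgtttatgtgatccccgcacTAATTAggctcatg
Hes5: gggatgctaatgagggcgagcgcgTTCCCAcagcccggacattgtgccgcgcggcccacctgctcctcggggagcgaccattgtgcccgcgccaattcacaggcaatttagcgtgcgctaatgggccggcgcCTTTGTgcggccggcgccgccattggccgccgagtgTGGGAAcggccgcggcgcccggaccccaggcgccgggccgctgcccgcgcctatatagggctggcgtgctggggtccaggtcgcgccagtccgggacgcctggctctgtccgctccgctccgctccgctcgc
The Hes5 window held 2 RBPJ cores, 1 on each strand, and 1 SOX core on the minus strand. The Emx2 window held 1 RBPJ core and 1 homeodomain core, and the Emx1 window held none of the 4. Of 32544 promoter windows of the same length in the table, 25.4% held the RBPJ core, 18.7% the SOX core, 5.3% the homeodomain core and 7.2% the E-box. These shares are for at least 1 hit, so none applies to the 2 RBPJ cores of Hes5. Matches are given as a description only. Among the windows not shown, the RBPJ core stood in both of Lhx2 and in that of Fabp7. The SOX core stood in 1 of Pax6 and in that of Sox2, and the homeodomain core in that of Slc1a3. The 3 windows shown held 37 CpG in Emx1, 26 in Emx2 and 41 in Hes5. Windows of the other 6 matched members held 3 (Slc1a3) to 34 (Lhx2), a range that includes the value of Emx2.

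Fabp7 was the most abundant of the 10 genes in the forebrain. In the brain translatome it stood at 953, 837 and 922 RPKM in replicates 1 to 3 (904 on average), the level of rank 17 among all rows. Lhx2 followed with 177, 165 and 164 RPKM, then Sox2 with 108, 104 and 99.1, Nes with 78.8, 67.1 and 59.8, Emx1 with 53.4, 47.4 and 52.8, and Pax6 with 42.0, 36.5 and 37.3. Each of these 6 genes lay clear of the next in all 3 libraries. The remaining 4 lay between 19.1 and 29.2 RPKM: Hes5 and Emx2 overlapped each other, as did Slc1a3 and Sox9. The same 3 genes led in the brain transcriptome, where Fabp7 had 508, 571 and 534 RPKM, Lhx2 141, 138 and 130, and Sox2 95.0, 97.2 and 90.2, while Pax6, Emx1 and Hes5 could not be ordered there because their ranges overlapped. Across the 21 libraries the levels of Pax6 and Lhx2 ran closely together (Pearson's r 0.996 of the log2 values), as did those of Lhx2 and Sox2 (0.995), whereas Emx2 and Nes ran against each other (-0.903). These correlations are descriptions across libraries that share organs and cell types, and they mostly follow the split between brain and kidney and the endothelial groups.

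**Figure D1:**
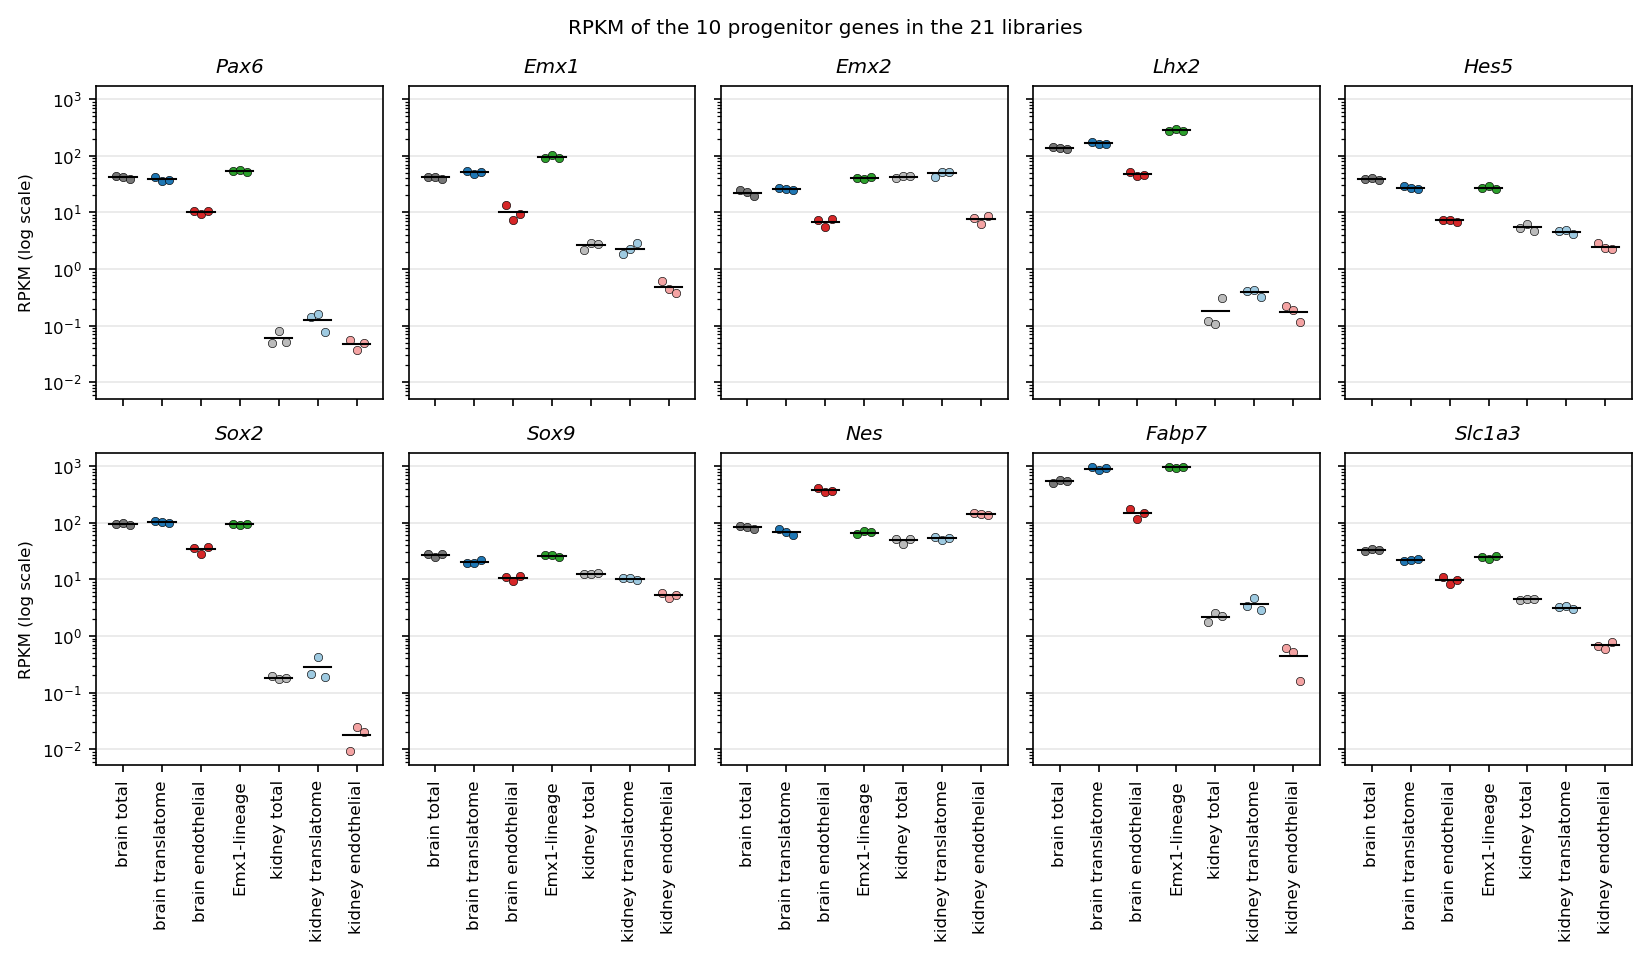
RPKM (log axis) of each of the 10 genes in the 21 libraries, with 1 point per library and a bar at the mean of the 3 replicates of each group (total: transcriptome). Emx1 and Lhx2 were highest in the Emx1-lineage translatome, Nes was highest in the brain endothelial translatome, Emx2 lay at 40.0 to 52.8 RPKM in the 6 whole-kidney libraries, and Pax6, Lhx2 and Sox2 lay under 0.5 RPKM in every kidney library.

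The comparison of the Emx1-lineage with the brain translatome asks which transcripts are on ribosomes of the dorsal lineage more or less than on those of the whole forebrain. The 4 patterning factors and Sox9 were higher in the Emx1-lineage, and no member was called lower. That is 5 of 10 members higher, where 9.2% of the 19006 rows tested were called higher and 22.1% were called in either direction. Those shares cover every row with at least 1 count, whereas each member had at least 1008 reads in every library compared. The members are therefore not read as an excess. The shares are given as a description only. Emx1 also drives the Cre that marks the lineage, and the members were chosen with earlier results of these data known. The members' median log2 fold change was 0.31, against 0.00 over all rows.

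Emx1, the homeodomain factor that gives the lineage its name, stood at 91.6, 102 and 93.3 RPKM in the Emx1-lineage against 53.4, 47.4 and 52.8 in the brain translatome. All 3 lineage libraries were above all 3 reference libraries, and the fold change was 1.94 (log2 0.96 ± 0.06 SE, adjusted p = 5.1e-09). The paper gives a low theoretical ceiling for fold changes in this lineage, because its cells are abundant in the telencephalon. Lhx2, a LIM homeodomain factor needed for the cortical field, stood at 275, 293 and 274 RPKM against 177, 165 and 164, a fold change of 1.73 (log2 0.79 ± 0.05, adjusted p = 3.8e-09). Emx2, the paralogue that patterns the caudal and medial cortex, stood at 41.2, 38.7 and 41.7 RPKM against 27.4, 26.2 and 25.0, a fold change of 1.61 (log2 0.69 ± 0.05, adjusted p = 4.5e-08). The groups did not overlap in either gene. Pax6, the paired-box factor of dorsal radial glia, stood at 53.2, 55.5 and 52.6 RPKM against 42.0, 36.5 and 37.3, again without overlap and with the smallest rise of the 4 (1.44-fold, log2 0.52 ± 0.05, adjusted p = 1.8e-06). Sox9, a SoxE factor of neural stem cells, stood at 26.5, 26.5 and 24.5 RPKM against 19.1, 19.2 and 21.8, a fold change of 1.34 (log2 0.42 ± 0.06, adjusted p = 3.6e-05), which was not called with limma on log2(RPKM + 1), where the log2 difference was 0.35.

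The other 5 members were not called. Sox2, the SoxB factor of neural progenitors on both sides of the telencephalon, stood at 94.5, 92.8 and 93.3 RPKM in the Emx1-lineage against 108, 104 and 99.1, with a log2 difference of -0.09 (95% interval -0.18 to -0.01, adjusted p = 0.093) and no overlap. Hes5 stood at 27.4, 29.1 and 25.5 RPKM against 29.2, 26.9 and 25.6, and its log2 difference of 0.06 had an interval of -0.07 to 0.18. Nes stood at 62.5, 70.0 and 68.0 RPKM against 78.8, 67.1 and 59.8, and its log2 difference of 0.02 (interval -0.13 to 0.16) took the other sign with total counts as the scale (-0.04). Fabp7, with 960, 923 and 957 RPKM against 953, 837 and 922, differed by 0.12 (interval 0.02 to 0.22, adjusted p = 0.0717). Slc1a3 came closest to a call among them, with 24.3, 23.2 and 25.4 RPKM against 21.1, 22.2 and 22.4 and a log2 difference of 0.20 (interval 0.11 to 0.30, adjusted p = 0.0039), also without overlap.

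A ratio of 2 genes within a library does not depend on how libraries are scaled. The ratio of Emx1 to Sox2 RPKM was 1.02 ± 0.07 (SD, n = 3) in the Emx1-lineage, 0.494 ± 0.039 in the brain translatome, 0.440 ± 0.003 in the brain transcriptome and 0.297 ± 0.069 in the brain endothelial translatome. The Emx1-lineage and brain translatome ranges (0.969 to 1.10 and 0.456 to 0.533) did not overlap. Emx1 and Sox2 had the highest and the lowest log2 fold change of the members in this comparison (0.96 and -0.09). The separation of their ratio follows from that choice of pair and is given as a description only. The ratio of Emx1 to Emx2 was 2.22 to 2.64 against 1.81 to 2.12, also without overlap. For that ratio the 2-sided exact permutation test gave p = 0.1, the smallest that 3 against 3 samples allow. The ratio of Fabp7 to Slc1a3 was 39.0 ± 1.1 against 41.3 ± 3.8 and overlapped.

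**Figure D2:**
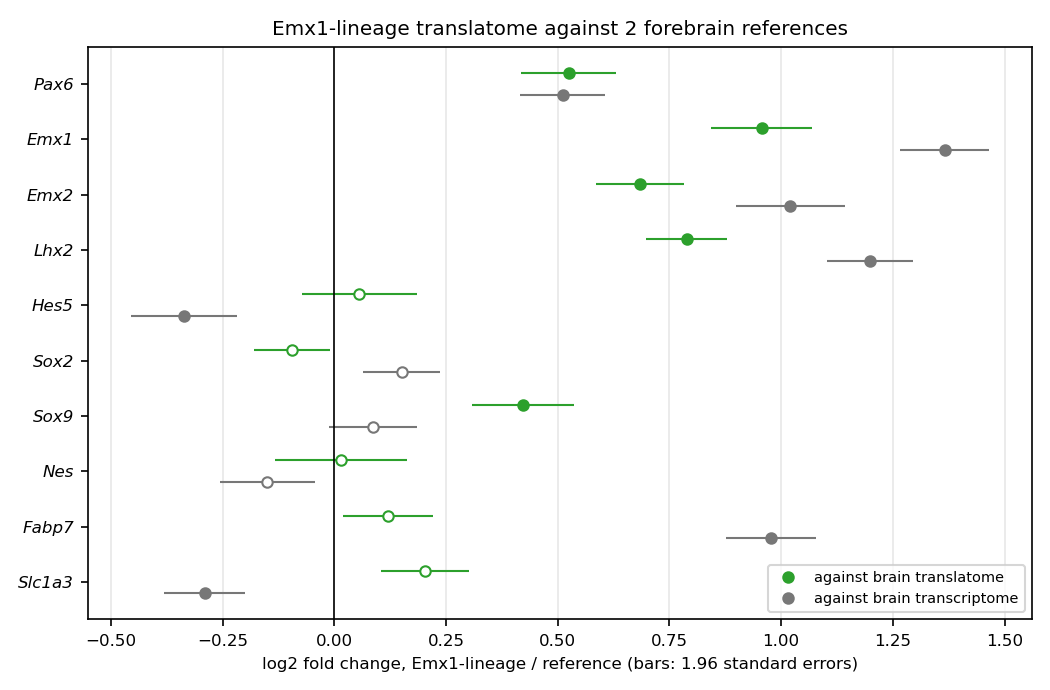
Log2 fold changes of the 10 genes in the Emx1-lineage translatome against the brain translatome (green) and against the brain transcriptome (grey), with bars of the 95% interval, filled points for calls and open points for the rest. Pax6, Emx1, Emx2 and Lhx2 lie right of 0 against both references, Fabp7 does so only against the transcriptome by a call, and Hes5 and Slc1a3 lie left of 0 against the transcriptome.

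Other genes of the same pathways are given by lists. Of 12 cortical and telencephalic patterning factors, 7 were higher in the Emx1-lineage and 3 lower (median log2 0.59). Among the higher ones were the doublesex-related factors Dmrta2 (0.94), Dmrta1 (0.90) and Dmrt3 (0.89). Of 6 other progenitor Sox genes, Sox5 (1.01), Sox3 (0.69) and Sox21 (0.46) were higher and Sox1 lower (-0.43), so members of the SoxB group lay on both sides of Sox2. Of 15 Notch pathway genes, 5 were higher and 4 lower, among them the effector Hes1 (0.72) and the DNA-binding partner Rbpj (0.65) higher and the ligand Jag2 (-0.76) and the effector Heyl (-4.13) lower. Of 12 other radial glial genes, 4 were higher and 1 lower, with Dbi (0.68), Bcan (0.54) and Tnc (0.46) higher and Ednrb lower (-0.50).

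Markers of other cells moved in the same comparison. Of 10 ventral telencephalic genes 9 were lower (median log2 -1.95, the largest Lhx6 at -2.49, Nkx2-1 at -2.33 and Dlx5 at -2.28), all 13 endothelial genes were lower (median -3.46), and of 14 neuronal genes 6 were higher and 3 lower, with Neurod6 (1.21) and Tbr1 (1.13) higher and Nefl lower (-1.22). Their part in the members' changes was not tested. The Emx1-lineage libraries also differ from the Sox2Cre libraries in Cre driver, embryos and sequencing lane, which cannot be told apart from the lineage.

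Against the brain transcriptome the same Emx1-lineage libraries gave a different pattern for the markers of the radial glial cell. Since the lineage libraries are shared, the values are set side by side and no overlap was tested. With 49.3% of 19471 rows called, 5 members were higher and 2 lower. That share too covers every row with at least 1 count, whereas each member had at least 1176 reads in every library compared. Emx1 (log2 1.37 ± 0.05 SE, adjusted p = 4.5e-12), Lhx2 (1.20 ± 0.05), Emx2 (1.02 ± 0.06) and Pax6 (0.51 ± 0.05) were higher, as against the translatome. Fabp7 was 1.97-fold higher (log2 0.98 ± 0.05, adjusted p = 1.7e-10), and its 923 to 960 RPKM lay far above the 508 to 571 RPKM of total RNA. Hes5 (log2 -0.34 ± 0.06, adjusted p = 1.3e-04) and Slc1a3 (-0.29 ± 0.05, adjusted p = 4.0e-05) were lower. The call of Hes5 was lost without Emx1-lineage replicate 3, where its log2 value was -0.30. Sox2 (0.15), Sox9 (0.09) and Nes (-0.15) were not called. With total counts as the scale Nes was called (-0.30), and the signs of Sox2 and Sox9 turned (-1.8e-05 and -0.06). This comparison sets ribosome-bound RNA against total RNA, so differences of lineage and of ribosome association cannot be told apart in it.

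RNA on tagged ribosomes and total RNA of the same forebrain samples were compared for the 10 transcripts. Ribosome association, here and in kidney, stands for this difference between translatome and transcriptome. The paper names possible biases of the method. Among them are CAGGS activity, or levels of the endogenous untagged ribosomal protein, that vary between cell types. The part of such biases in the values was not tested. With 37.1% of 19446 rows called in this comparison, 3 members were higher in the brain translatome, 3 lower and 4 not called. That share covers every row with at least 1 count, whereas each member had at least 1008 reads in every library compared. The paper reports a larger share of differing RNAs among the well expressed ones, so the members are not read as an excess. The members' median log2 fold change was 0.04. Fabp7 was highest, at 953, 837 and 922 RPKM on ribosomes against 508, 571 and 534 in total RNA (1.72-fold, log2 0.78 ± 0.07 SE, adjusted p = 1.8e-07). The 2 groups lay far apart. Lhx2 (177, 165 and 164 against 141, 138 and 130 RPKM) and Emx1 (53.4, 47.4 and 52.8 against 42.1, 42.8 and 39.5 RPKM) were both 1.26-fold higher (log2 0.33 each, adjusted p = 1.4e-04 and 4.9e-04). These 2 calls were not kept with sequencing lane as a term, where the log2 values were 0.29 for Lhx2 (adjusted p = 0.0053) and 0.31 for Emx1 (adjusted p = 0.014), nor in a fit of all 21 libraries (0.31 for both, adjusted p = 0.00356 and 0.0617), nor without brain translatome replicate 1 (log2 0.27 for both) or brain transcriptome replicate 3 (0.30 for both). Emx1 was also not called without brain transcriptome replicate 1 (0.34) or brain translatome replicate 3 (0.31), nor with at least 10 counts in 3 libraries (0.32, adjusted p = 0.00134). limma called neither gene.

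Slc1a3, the glutamate-aspartate transporter of glia, was lower on ribosomes, at 21.1, 22.2 and 22.4 RPKM against 31.6, 34.3 and 33.5 (log2 -0.57 ± 0.05, adjusted p = 2.7e-07). Hes5 stood at 29.2, 26.9 and 25.6 RPKM against 38.2, 39.9 and 37.4 (log2 -0.47 ± 0.07, adjusted p = 3.2e-05), and Sox9 at 19.1, 19.2 and 21.8 RPKM against 28.4, 25.2 and 28.0 (log2 -0.41 ± 0.07, adjusted p = 9.2e-05). In all 3 genes every ribosome-bound value was below every total value. The 4 members without a call were Emx2 (log2 0.26), Sox2 (0.17), Pax6 (-0.09) and Nes (-0.24). With the tissue sample as a block, Emx2 (0.26, adjusted p = 2.3e-04) and Nes (-0.25, adjusted p = 2.2e-04) were called as well, which makes 8 members. Pax6 and Sox2 were not called there (adjusted p = 0.142 and 0.00548). Nes was also called without brain translatome replicate 1 (-0.39), and Sox9 was not called by limma on log2(RPKM + 1), where its difference was -0.42.

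The ratio of Fabp7 to Slc1a3, a pair taken because they moved in opposite directions here, within a library was 41.3 ± 3.8 (SD, n = 3) in the brain translatome against 16.2 ± 0.4 in the transcriptome, with ranges of 37.7 to 45.2 and 15.9 to 16.6. It is given as a description of the values above. In the Emx1-lineage translatome the ratio was 39.0 ± 1.1, and in the brain endothelial translatome 15.0 ± 0.5.

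Among related genes, 6 of 12 other radial glial genes were lower on forebrain ribosomes and 1 was higher. The lower ones were led by Ptprz1 (log2 -1.38), Tnc (-1.25) and Bcan (-1.14), cell surface and matrix proteins, and the higher one was Dbi (1.09), a small acyl-CoA binding protein. Of 15 Notch pathway genes 5 were lower, led by the receptors Notch1 (-1.33) and Notch2 (-1.22), and 2 higher, with Heyl at 0.72. Of 6 progenitor Sox genes, Sox5 (-0.54), Sox6 (-0.48) and Sox8 (-0.44) were lower, and none of the 12 patterning factors was called by edgeR in this comparison, where 7 of them had an unadjusted p under 0.05. Markers of other cells also moved: 6 of 13 endothelial genes were higher on ribosomes (median log2 0.46), 2 of 10 ventral genes were higher and 3 lower, and 4 of 14 neuronal genes were higher and 1 lower. Their part in the members' values was not tested.

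**Figure D3:**
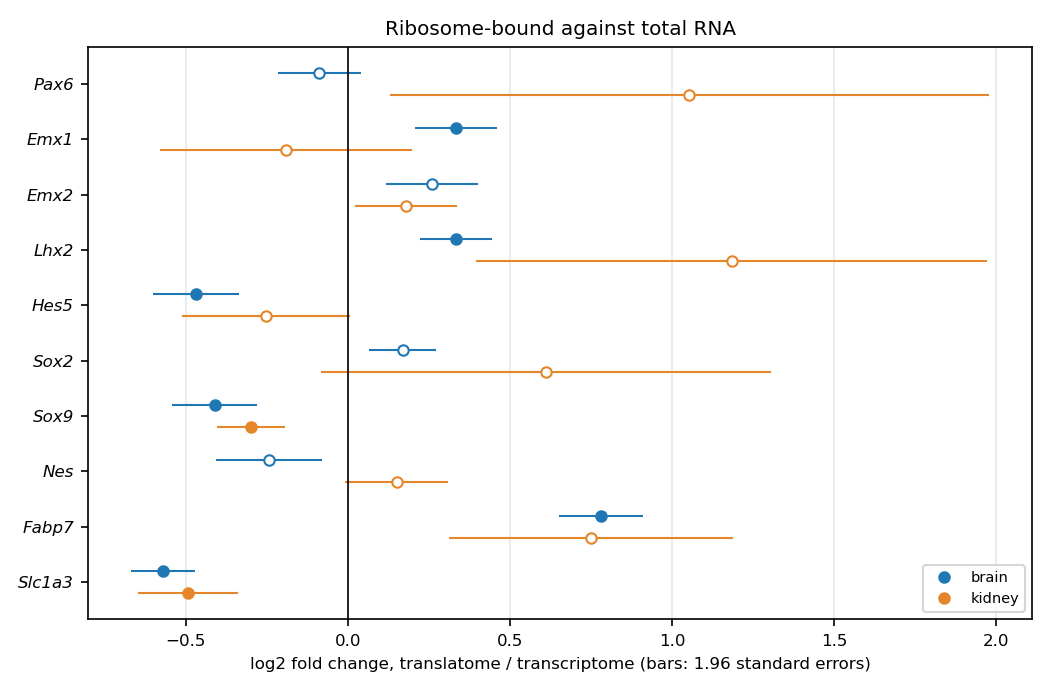
Log2 fold changes of the 10 genes on ribosomes against total RNA in brain (blue) and kidney (orange), with bars of the 95% interval, filled points for calls and open points for the rest. Fabp7 lies at 0.78 in brain and 0.75 in kidney, Slc1a3 at -0.57 and -0.49, and Pax6, Lhx2 and Sox2 have wide bars in kidney, where a library held at most 25 reads of each.

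In kidney 30.7% of 19336 rows were called between translatome and transcriptome (15.8% lower on ribosomes), and 2 members were lower on ribosomes. Slc1a3 stood at 3.18, 3.32 and 3.02 RPKM against 4.38, 4.50 and 4.55 (log2 -0.49 ± 0.08, adjusted p = 3.6e-04) and Sox9 at 10.4, 10.5 and 9.70 RPKM against 12.6, 12.3 and 12.9 (log2 -0.30 ± 0.05, adjusted p = 7.5e-04). The groups did not overlap in either gene. Neither call was kept with sequencing lane as a term, where the differences were -0.56 for Slc1a3 (adjusted p = 0.00298) and -0.37 for Sox9 (adjusted p = 0.00296). The call of Sox9 was lost when any of the 6 libraries was left out (log2 -0.32 to -0.27) and that of Slc1a3 when any but kidney translatome replicate 2 was (-0.51 to -0.46). With the tissue sample as a block 6 members were called, as Fabp7 (0.76, adjusted p = 1.3e-05), Emx2 (0.17), Lhx2 (1.21) and Nes (0.15) were added on the higher side. That blocked fit had infinite prior degrees of freedom, so every gene took its dispersion from the trend. Fabp7 stood at 3.33, 4.67 and 2.91 RPKM on kidney ribosomes against 1.75, 2.50 and 2.28 in total RNA, on 48 to 84 reads per library.

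Whether the difference between translatome and transcriptome differed between the organs was tested as an interaction over the 12 Sox2Cre libraries. None of the 10 members was called by edgeR, where 6.47% of 20108 rows were (4.12% lower in brain). DESeq2 and limma also called 0, and in edgeR 4 members had an unadjusted p under 0.05. Nes came closest. It was lower on ribosomes in brain and higher in kidney (log2 -0.24 and 0.15, neither called), an organ difference of -0.41 ± 0.14 (adjusted p = 0.0416) that was called with the tissue sample as a block (-0.42, adjusted p = 5.9e-06). Without kidney transcriptome replicate 3, Lhx2 was called at -1.42, on 10 to 23 kidney reads per library.

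The contrast of forebrain and kidney gives the range of each gene. In total RNA 53.5% of 19841 rows were called, and in the translatome 53.4% of 19241. All 10 members were called in both, 9 higher in brain and Emx2 lower. Emx2 stood at 40.0, 44.6 and 44.7 RPKM in the kidney transcriptome against 24.5, 22.9 and 19.7 in brain (log2 -0.76 ± 0.07, adjusted p = 2.7e-06), and at 41.9, 52.8 and 51.5 RPKM in the kidney translatome against 27.4, 26.2 and 25.0 (log2 -0.69 ± 0.08, adjusted p = 2.8e-06). Every kidney value was above every brain value. Its paralogue Emx1 stood at 1.81 to 2.93 RPKM in the 6 whole-kidney libraries, 18.1-fold below brain in total RNA and 25.8-fold below it on ribosomes. The ratio of Emx1 to Emx2 was accordingly 1.86 ± 0.14 in the brain transcriptome and 0.0607 ± 0.0058 in the kidney transcriptome.

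Pax6, Lhx2 and Sox2 were close to absent from kidney. Pax6 had 19 reads in the 3 kidney transcriptome libraries together, against 16436 in brain, a ratio of reads scaled to library totals of 707 (exact 95% interval 452 to 1174, counting error only). Sox2 had 14 to 24 reads and Lhx2 10 to 22 reads per kidney transcriptome library. The 14 neuronal genes summed to 26.7 to 29.9 RPKM in the kidney transcriptome and 30.7 to 40.7 in the kidney translatome, with 3 and 0 of them under 0.1 RPKM, and the 8 neural crest glia genes to 10.2 to 11.3 and 6.33 to 7.38 RPKM, with 4 under 0.1 in each. The part of nerve cells or glia in the low kidney levels was not tested.

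The other 5 members were measured well in both organs or within a wide range. Fabp7 was 285-fold higher in brain in both kinds of RNA (log2 8.16 and 8.15). Hes5 stood at 5.41, 6.25 and 4.77 RPKM in the kidney transcriptome against 38.2, 39.9 and 37.4 in brain, 7.98-fold lower. Slc1a3 was 8.45-fold lower in kidney, and Sox9 only 2.47-fold lower, at 12.6, 12.3 and 12.9 RPKM. Nes had the smallest difference among the 9 that were higher in brain, with 87.5, 83.6 and 77.5 RPKM in brain total RNA against 51.7, 42.2 and 51.6 in kidney (log2 0.96 ± 0.08, adjusted p = 1.0e-06) and a log2 difference of 0.55 ± 0.09 on ribosomes (adjusted p = 7.9e-05). On ribosomes that call was lost with total counts as the scale (0.36), with limma on log2(RPKM + 1) and log2(RPKM + 0.1) (0.34 for both, adjusted p = 0.0207 and 0.0154) and without brain translatome replicate 1 (0.44). Nes was thereby the highest of the 10 genes in kidney, in ranges that overlapped those of Emx2.

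Related genes differed between the organs as lists too. In the translatome all 6 progenitor Sox genes and 10 of 12 patterning factors were higher in brain (medians of log2 6.04 and 6.23), as were 8 of 12 other radial glial genes, led by Bcan (9.10) and Ttyh1 (7.00). Of the 12 patterning factors 1 was lower in brain, Nr2f2 (-1.37), and of the 12 other radial glial genes 3 were, Tnc (-1.34), Prom1 (-0.60) and Mfge8 (-0.39), which are named here after their values were seen. Of 15 Notch pathway genes 9 were lower in brain and 4 higher. Jag1 (-2.43) and Heyl (-2.13) were higher in kidney and Dll3 (6.36), a ligand of neural progenitors, was higher in brain. As checks of the organs, all 10 nephron progenitor and stroma genes and all 11 ureteric bud genes were lower in brain.

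Brain endothelial and brain translatomes were compared to see which progenitor transcripts are on the ribosomes of blood vessels. In both organs the endothelial libraries also differ from the Sox2Cre libraries in Cre driver, tamoxifen, embryos and sequencing lane. These cannot be told apart from the cell population, here, in kidney or in the interaction of the organs below. All 10 members were called, where 46.2% of 19103 rows were, and 9 were lower. That share covers every row with at least 1 count, whereas each member had at least 464 reads in every library compared. Nes alone was higher. It stood at 411, 353 and 356 RPKM in the brain endothelial translatome against 78.8, 67.1 and 59.8 in the whole forebrain, 6.65-fold higher (log2 2.73 ± 0.11 SE, adjusted p = 1.7e-10). The groups lay far apart, and at 373 RPKM on average Nes had rank 67 among all rows there. In the Emx1-lineage translatome, which held few endothelial reads by the markers above, it stood at 62.5, 70.0 and 68.0 RPKM.

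The other 9 members retained 19.7% to 64.2% of their level in the whole forebrain translatome. Fabp7 fell furthest, to 174, 118 and 146 RPKM (19.7%, log2 -2.34 ± 0.12, adjusted p = 1.6e-09), and still had rank 323. Emx1 stood at 13.4, 7.42 and 9.29 RPKM, or 24.1% (log2 -2.06 ± 0.16), with the widest spread among these libraries. Emx2 (32.0%), Pax6 (32.3%), Hes5 (32.4%), Lhx2 (34.4%) and Sox2 (39.6%) lay together. Lhx2 stood at 52.3, 44.2 and 46.0 RPKM and Sox2 at 35.7, 28.4 and 36.7. Slc1a3 retained 54.1% (11.2, 8.11 and 9.78 RPKM, log2 -0.89 ± 0.10, adjusted p = 3.3e-06) and Sox9 64.2% (10.8, 9.39 and 11.4 RPKM, log2 -0.64 ± 0.09, adjusted p = 2.1e-05). These shares come from the fitted fold changes, which are scaled by TMM factors, and the ratios of RPKM, which is scaled by total reads, are lower. With total counts as the scale the median of all rows moved from -0.01 to -0.30, and all 10 members kept their direction and their call.

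Markers of neural cells were also present in the brain endothelial translatome. Of 14 neuronal genes 13 were lower, led by Neurod6 (log2 -2.98) and Gap43 (-2.93), and 1 was higher, with a median of 38.2% of the whole-forebrain level and a range of 12.7% to 163%. Their summed RPKM was 581 to 740, against 3252 to 3269 in the brain translatome, and none of the 14 was under 0.1 RPKM. All 10 ventral telencephalic genes were lower, at 15.1% to 52.7% of the whole-forebrain level, with summed RPKM of 81.4 to 84.8 against 329 to 355. The part of RNA from neural cells in the levels of the 9 members was not tested.

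**Figure D4:**
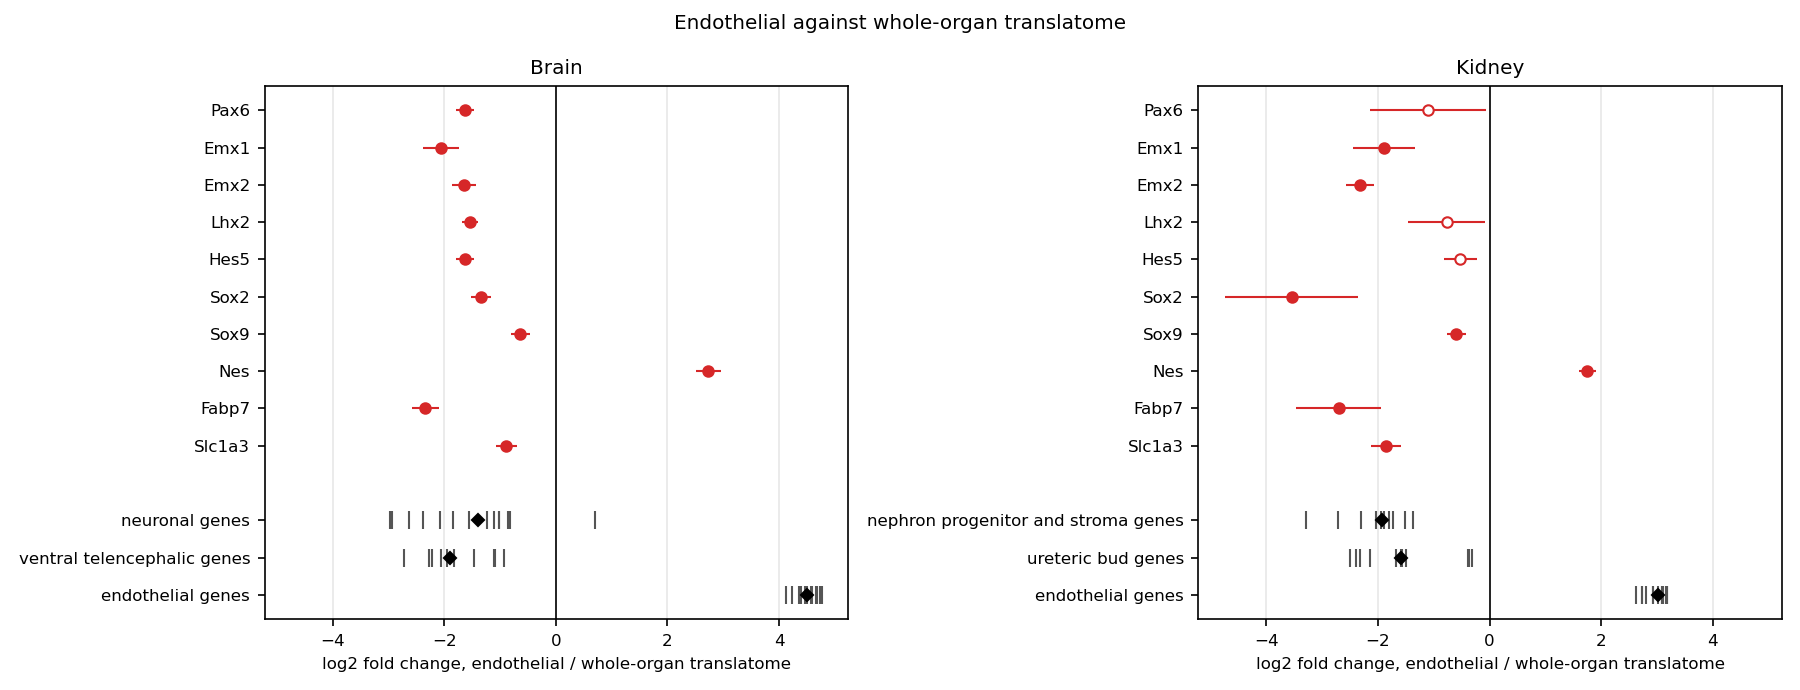
Log2 fold changes of the 10 genes between endothelial and whole-organ translatome in brain (left) and kidney (right), with bars of the 95% interval, filled points for calls and open points for the rest; ticks below show the single genes of 3 lists and diamonds their medians. Nes lies at 2.73 in brain and 1.75 in kidney, between the other members and the endothelial genes (medians 4.50 and 3.03).

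The gene lists split in the same comparison. All 6 progenitor Sox genes were lower in the brain endothelial translatome (26.4% to 54.4%), as were 10 of 12 patterning factors, among them Nr2e1 (log2 -1.91) and Dmrta2 (-1.83), while 1 was higher. The 12 other radial glial genes divided into 5 higher and 5 lower. Among the higher ones Vim (1.68), the filament protein that pairs with nestin, and Tnc (1.83) led, and among the lower ones Ttyh1 (-2.71) and Bcan (-1.73). Of 15 Notch pathway genes 9 were higher, led by the ligands Jag2 (3.01) and Jag1 (2.65), and 3 were lower, among them Dll3 (-1.65) and Heyl (-1.60). All 13 endothelial genes were higher, by 17.5-fold to 27.2-fold.

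In kidney 31.7% of 18940 rows were called between endothelial and whole-organ translatome, and again Nes was the member called higher. It stood at 147, 141 and 137 RPKM against 56.9, 50.2 and 54.1, 3.37-fold higher (log2 1.75 ± 0.07, adjusted p = 9.8e-09). At 142 RPKM on average it had rank 358. Emx2 fell to 7.96, 6.21 and 8.61 RPKM from 41.9, 52.8 and 51.5, or 20.0% (log2 -2.32 ± 0.13, adjusted p = 6.5e-08). Slc1a3 fell to 0.664, 0.588 and 0.792 RPKM (27.6%, adjusted p = 8.0e-07), Sox9 to 5.74, 4.74 and 5.30 RPKM (66.1%, adjusted p = 1.5e-04), Emx1 to 0.373 to 0.615 RPKM (27.0%, adjusted p = 1.7e-04) and Fabp7 to 0.160 to 0.621 RPKM (15.4%, adjusted p = 1.3e-04). The call of Emx1 was lost without kidney translatome replicate 3 (log2 -1.71).

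Sox2 was read 1, 2 and 2 times in the 3 kidney endothelial libraries and 13, 25 and 10 times in the kidney translatome, a ratio of reads scaled to library totals of 16.4 (exact 95% interval 6.57 to 52.9, counting error only). edgeR called it (adjusted p = 4.8e-04), and leaving out any of the 6 libraries ended the call (log2 -3.79 to -3.10). Hes5 stood at 2.83, 2.35 and 2.29 RPKM against 4.69, 4.89 and 4.20 and was not called (log2 -0.52, adjusted p = 0.0126), but it was called with total counts as the scale (-0.89), in a fit of all 21 libraries (-0.55) and by limma on log2(RPKM + 1) (-0.68). With total counts the median of all rows moved from -0.04 to -0.41. Pax6 and Lhx2, with 3 to 10 and 11 to 23 reads per library, were not called. The kidney's own markers fell as well: all 10 nephron progenitor and stroma genes were lower, at 10.2% to 38.4% of the whole-kidney level, as were 8 of 11 ureteric bud genes, and of the 12 other radial glial genes 4 were higher, led by Ednrb (2.71), Tnc (2.44) and Vim (1.78), and 3 lower, led by Ttyh1 (-1.83). The part of RNA from nephron or ureteric cells in the remaining Emx2 and Sox9 levels was not tested.

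The organs were compared in the size of these endothelial differences. The interaction called 3 members where 25.1% of 19764 rows were called (8.6% lower in brain), and its median over all rows was 0.15 rather than 0, so the values are read against that shift. The rise of Nes was larger in brain than in kidney by 1.01 ± 0.14 on the log2 scale (adjusted p = 1.3e-05). All 13 endothelial genes were called in the same direction (median log2 1.53), and their part in the value of Nes was not tested. Hes5 fell more in brain, by -1.07 ± 0.15 (adjusted p = 2.0e-05). Slc1a3 fell less in brain, by 0.99 ± 0.17 (adjusted p = 1.1e-04), a call that was lost with limma on log2(RPKM + 1), where its difference was 0.20, and on log2(RPKM + 0.1), where it was 0.89 (adjusted p = 0.00102). Without brain endothelial replicate 2, Emx2 (0.83) and Sox2 (2.37) were called too.

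Between the brain and kidney endothelial translatomes 37.0% of 19238 rows were called (20.1% higher in brain), and 9 members were higher in brain. Nes was 2.72-fold higher (log2 1.44 ± 0.09, adjusted p = 1.3e-07), Sox9 2.06-fold (adjusted p = 6.1e-06) and Hes5 2.98-fold (adjusted p = 1.8e-06). Sox2 had 14335 reads in the brain and 5 in the kidney endothelial libraries, a ratio of reads scaled to library totals of 1980 (exact 95% interval 848 to 6098, counting error only), and Pax6 4619 and 14 reads, a ratio of 228 (136 to 417). Emx2 was the exception. It stood at 7.41, 5.52 and 7.61 RPKM in brain and 7.96, 6.21 and 8.61 RPKM in kidney, overlapping, with a log2 difference of -0.11 (95% interval -0.41 to 0.19, adjusted p = 0.547). With the libraries of the same number as a block, 9 members were called as well. Neural markers moved the same way, with 13 of 14 neuronal genes and 9 of 10 ventral telencephalic genes (median log2 8.04) higher in the brain endothelial libraries, and their part in the members' values was not tested. Each endothelial group was sequenced in a lane of its own, so lane and organ cannot be told apart here.

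For each gene the rows with the most similar pattern over the 21 libraries were found by Pearson's r of log2(RPKM + 1) among 14558 rows with a mean of at least 1 RPKM in a group. Pax6 was followed most closely by Neurog2 (r = 0.9997), Insm1 (0.9991) and Nr2e1 (0.9989), Sox2 by Elavl3 (0.9996) and Psd (0.9986), and Lhx2 by Scrt2 (0.999), Sox21 (0.999) and Tbr1 (0.9985). Emx1 was followed by Bhlhe22 (0.9955), Nog and Fbxo25, Fabp7 by Lrrc4b (0.9984), Nsg2 and Cntnap2, Hes5 by Fcho1 (0.9958), Ric3 and Fnbp1l, and Slc1a3 by Clstn3 (0.9944), Zcchc18 and Sept3. The 3 members whose kidney or endothelial levels were high had lower best values: Emx2 with Mfap4 (0.9856), Timp2 and Pdlim4, Sox9 with Gm10509 (0.9899), Trim2 and Ephb6, and Nes with Trio (0.979), Stox1 and Ecm2. Most of these values follow the split between the brain and kidney libraries, and all are given as descriptions. Emx2 and Nes did not follow that split (r with Pax6 0.032 and 0.083). Emx2 was lowest and Nes highest in the endothelial groups.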

How the data were processed

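The authors captured RNA on mCherry-tagged ribosomes by affinity purification, prepared libraries with a kit that does not mark strand, mapped reads with RUM to GRCm38 (mm10) and counted them on RefSeq transcripts with rpkmforgenes. The deposited files hold, for each library, the read counts per gene, without normalization, and the RPKM values the authors computed from them. For the tests, edgeR 4.0.16 (R 4.3.3) was run on the counts with TMM scaling, glmQLFit and glmQLFTest, on rows with at least 1 count, in 9 comparisons each fitted on its 6 libraries and 2 interactions fitted on 12. Adjustment was by Benjamini-Hochberg across the rows of each comparison, and 0.001 was the threshold. Standard errors were obtained as the absolute log2 fold change over the root of the F statistic, and 95% intervals from them by the normal approximation. RPKM values are given per library or as mean ± SD of 3 replicates.

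The translatome and transcriptome libraries of the same number and organ came from the same tissue sample, and their deviations from the group means correlated (r 0.377 to 0.586 in brain, 0.53 to 0.597 in kidney). Brain and kidney endothelial libraries of the same number also deviated together (0.168 to 0.323), and the other groups did not pair. Alternatives were DESeq2 1.42.0, other size factors, total counts, a stricter count filter, a fit of all 21 libraries, the number as a block, the sequencing lane as a term, limma 3.58.1 on log2(RPKM + 1) and log2(RPKM + 0.1), and leaving out each library. The lane could be fitted only between translatome and transcriptome of an organ. The edgeR steps were tested on simulated counts.

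The members and the gene lists were chosen with earlier results of these data known. The text names all 10 members, for each list and comparison at most the 4 called genes of largest change, and up to 3 rows most like each member. Some genes that this rule would name are not reported here. Promoter sequences come from RefSeq (GRCm38.p6), which matched 9 of the 10 members (not Sox9), and gene positions from GENCODE on GRCm38. Figures were drawn with matplotlib 3.10.9.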

Additional observations from a re-analysis of the deposited data

Results flagged for a closer look

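The endothelial difference (endothelial against whole-organ translatome) differed between brain and kidney in 3 of the 10 genes by the test of the interaction, where 25.1% of all rows were called, a share close to that of the members. For Nes the organ difference was 1.01 on the log2 scale, with a rise of 2.73 in brain and of 1.75 in kidney, and it ranged from 0.91 to 1.12 when single libraries were left out. All 13 endothelial genes were called in the same direction with a larger median (log2 1.53). For Hes5 it was -1.07, with -1.63 in brain and -0.52 in kidney, and ranged from -1.13 to -0.96. For Slc1a3 it was 0.99, with -0.89 in brain and -1.86 in kidney, and ranged from 0.88 to 1.12 when single libraries were left out. The call of Slc1a3 was lost with limma on log2(RPKM + 1) (0.20, adjusted p = 0.246) and on log2(RPKM + 0.1) (0.89, adjusted p = 0.00102). The median over all rows was 0.15 in this fit and 0.06 with relative log expression size factors, under which the 3 values were 0.92, -1.17 and 0.90. The neuronal genes had a median of 38.2% of the whole-organ level in the brain endothelial libraries, and their part in the values of Hes5 and Slc1a3 was not tested.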

How the results depend on the processing

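With DESeq2 and with relative log expression size factors every member kept its direction and its side of the threshold in all results computed (100 each). The largest changes were in the kidney translatome against transcriptome, where 2 members were called: 1 was called with at least 10 counts in 3 libraries and 1 in a fit of all 21 libraries, 0 with either limma setting or with sequencing lane as a term, and 0 to 1 when single libraries were left out. With the replicate block 6 were called, and all rows called there went from 5929 to 9496 (3714 with lane). In brain limma called 3 members with either pseudocount, against 6, and single libraries left out gave 4 to 6. For the organ difference in ribosome association the block called 1 member, single libraries left out gave 0 to 1, and all rows called went from 1301 to 3445 with the block, to 2669 with DESeq2 and to 850 without kidney transcriptome replicate 2. For the organ difference of the endothelial comparisons, limma on log2(RPKM + 1) called 5 members and single libraries left out gave 3 to 5, against 3. The block ended the call of Sox2 in the kidney endothelial comparison (-3.48), where the numbers do not pair the samples, and changed no other call than those named.

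Signs turned in values that edgeR had not called. Nes in the Emx1-lineage against the brain translatome was -0.036 with total counts, -0.0038 with at least 10 counts, -0.0298 and -0.0301 with limma and -0.071 to 0.125 with single libraries left out. Against the brain transcriptome, Sox2 was -1.8e-05 with total counts and -0.0088 with both limma settings, and Sox9 was -0.064 with total counts, -0.015 in a fit of all libraries and -0.070 and -0.072 with limma. Emx1 in kidney was 0.12 with lane as a term. Emx2 between the endothelial groups was 0.0058 in a fit of all libraries and -0.24 to 0.027 with single libraries left out. The organ difference in ribosome association of Lhx2 was 0.065 with limma on log2(RPKM + 1), and the endothelial organ difference of Sox2 was -1.28 (a call, adjusted p = 1.8e-05) with limma on log2(RPKM + 1) and -0.0012 with a pseudocount of 0.1. Among the interaction values left out above, the organ difference in ribosome association of Fabp7 was -0.0038 and, with the replicate block, 0.0002. The signs of the left-out values in the other settings are not given.

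Scaling by total counts moved the median of all rows to -0.30 in the brain and -0.41 in the kidney endothelial comparison, to -0.20 between the organs and to -0.21 for the Emx1-lineage against the transcriptome. It changed the rows called higher and lower from 4740 and 4084 to 3397 and 6002 in the brain endothelial comparison, from 3163 and 2837 to 1564 and 5655 in the kidney endothelial comparison, and from 1749 and 2442 to 1183 and 2778 for the Emx1-lineage against the brain translatome, where limma called 367 and 1654 (2021 in all) or, with a pseudocount of 0.1, 455 and 1831 (2286). With a pseudocount of 0.1, 1 of the 3 most similar rows was shared for Emx1, Lhx2, Hes5, Sox2 and Fabp7. Few reads limit Pax6, Sox2 and Lhx2 in kidney.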
